A study of Homo sapiens with 12 samples.

Results

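The genes described here form the signalling axis of interleukin 6 (IL6), the transcription factor STAT3 and the C/EBP factors CEBPB and CEBPD in 2 hepatocellular carcinoma lines treated with DAAD2, a dehydroabietylamine derivative. The members are IL6, LIF, IL6R, IL6ST, OSMR, JAK1, STAT3, SOCS3, CEBPB and CEBPD, 10 of the 19775 genes with a probe set, a list drawn up by gene name when earlier results of these data were already known. Every probe set that the platform annotation gives to 1 of these symbols was taken, which came to 31 of the 54675 probe sets on the Affymetrix Human Genome U133 Plus 2.0 array. A probe set is a group of short probes for the same transcript, and its level is a log2 value, on which a difference of 1 means a doubling. Hep3B, labelled DAAD-2 sensitive, was treated with 2 μM DAAD2 for 72 h. SNU449, labelled DAAD-2 resistant, was treated with 20 μM DAAD2 for 72 h. The control of each line was 0.1% DMSO for 72 h, and each of the 4 groups held 3 arrays of total RNA. Line and dose change together, so a difference between the lines cannot be told apart from a difference between the doses. The labels speak of triplicate treatment without saying whether the plates were separate cultures, so the p-values speak for the scatter of these arrays, which can be technical. In bulk RNA, fewer cells making a transcript and less transcript per cell cannot be told apart.

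As background, IL6 is the inflammatory cytokine that drives the acute phase response of the liver, in which hepatocytes make fibrinogen, complement and other plasma proteins. IL6 binds its receptor chain IL6R, and the pair joins the signalling chain IL6ST (gp130), which LIF and the oncostatin M receptor OSMR also use. The kinase JAK1 on that chain phosphorylates STAT3, which enters the nucleus and switches on SOCS3, the inhibitor that shuts the receptor down, and CEBPD and CEBPB, factors that act with STAT3 at acute phase genes. Phosphorylation was not measured by these arrays, which read transcripts.

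Promoters of the members were read from RefSeq (GRCh38.p14), as the 250 bases before each transcription start. Of the members 8 genes had 12 such windows, since JAK1, SOCS3 and CEBPB have several starts, and the windows of LIF and CEBPD were not used here. Both strands were searched for a STAT motif (TTCNNNGAA, in 6.57% of 35116 promoter windows), a C/EBP motif (TTNNGNAAT, in 9.85%) and an IL6 response element (CTGGGAA, in 9.15%). The 3 windows that held a match are shown because their genes, IL6, OSMR and SOCS3, are described below, and capitals mark the matches, all on the opposite strand. None of the matches overlapped another.
IL6 (chr7:22726950-22727199, + strand): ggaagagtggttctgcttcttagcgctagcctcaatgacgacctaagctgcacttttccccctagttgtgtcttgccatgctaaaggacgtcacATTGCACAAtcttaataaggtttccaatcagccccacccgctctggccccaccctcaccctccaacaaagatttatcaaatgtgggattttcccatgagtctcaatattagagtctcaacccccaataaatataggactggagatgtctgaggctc
OSMR (chr5:38845762-38846011, + strand): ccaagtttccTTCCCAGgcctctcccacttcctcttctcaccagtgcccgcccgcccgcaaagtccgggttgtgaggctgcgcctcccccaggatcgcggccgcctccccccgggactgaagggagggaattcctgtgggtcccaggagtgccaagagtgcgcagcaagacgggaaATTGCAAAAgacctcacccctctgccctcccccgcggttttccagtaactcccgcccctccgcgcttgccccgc
SOCS3 (chr17:78360926-78361175, - strand): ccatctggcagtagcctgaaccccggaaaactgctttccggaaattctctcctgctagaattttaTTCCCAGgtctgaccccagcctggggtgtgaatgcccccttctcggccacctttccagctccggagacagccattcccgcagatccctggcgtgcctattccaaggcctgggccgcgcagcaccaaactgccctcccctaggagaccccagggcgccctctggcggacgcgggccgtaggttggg
The IL6 window held the C/EBP letters as ATTGCACAA, 156 to 148 bases before the start. The OSMR window held the C/EBP letters as ATTGCAAAA, 74 to 66 bases before the start, and the response element as TTCCCAG, 240 to 234 bases before it. The SOCS3 window held the response element as TTCCCAG, 185 to 179 bases before the start. The STAT motif was in none of the 12 windows. A match is a description of the letters and says nothing of binding in these cells.

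The lines differed in the marker genes chosen as a line check, while identity itself was not tested. Albumin (ALB), the main secreted protein of hepatocytes, stood at a log2 value of 14.53 in Hep3B controls and 3.18 in SNU449 controls, and vimentin (VIM), a mesenchymal filament, at 10.24 and 13.94. AFP stood at 8.53 in Hep3B controls and 4.11 in SNU449 controls. Of 6 leukocyte markers measured, PTPRC, which defines leukocytes, had means of 3.23 and 3.21 in the control groups, below the array medians of 3.71 to 3.85. It was the 1 marker whose mean lay below the median of the array medians in every group. CD3E (4.35 in Hep3B and 4.95 in SNU449 controls) and ITGAM (4.33 and 4.18) lay above the array medians in both, and CD14 did in Hep3B (5.37 and 3.32). The macrophage enzyme LYZ stood at 12.14 in Hep3B controls and 3.06 in SNU449 controls. The log2 of the 6 markers' summed linear levels ran from 6.42 to 6.53 in SNU449 controls and from 6.35 to 6.51 after DAAD2, and from 12.02 to 12.32 and 11.47 to 11.80 in the same groups of Hep3B. RNA quality, read as the 3′ minus the 5′ signal of GAPDH, was 1.99 log2 units in DAAD2 replicate 2 of SNU449 against 0.34 to 0.97 on the other SNU449 arrays, so member values and counts without that array are given below. The Hep3B arrays lay between 0.45 and 1.51. By the same reading of ACTB, SNU449 controls were at 2.76, 1.82 and 2.15 and the DAAD2 arrays at 2.64, 3.04 and 2.52. Hep3B controls were at 2.73, 1.93 and 2.90 and the DAAD2 arrays at 2.29, 2.49 and 3.27. SNU449 DAAD2 replicate 2 was thus again the highest of its line, while Hep3B DAAD2 replicate 3 was the highest of all arrays. Of the 31 member probe sets, 7 had a mean below the median of the array medians in all 4 groups, and sizes of change are less certain for such dim probe sets.

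In the untreated lines, the axis was carried at higher transcript levels by SNU449 than by Hep3B, except for the IL6 receptor. At an adjusted p under 0.05 (limma, with Benjamini-Hochberg adjustment over 54613 probe sets), 19 of 31 member probe sets were higher in SNU449 controls and 1 was lower. Across the whole array 14.7% of probe sets were higher and 14.4% lower. The median difference over the members was 1.05 log2 units, against 0.01 over all probe sets. By the probe set with the highest mean, all 10 genes differed, IL6R being lower and the others higher in SNU449. Over 19775 genes, each by its highest-mean probe set, 19.3% were higher and 21.2% lower.

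The receptor subunit OSMR, which pairs with IL6ST to bind oncostatin M, stood far apart between the lines. Its probe set 226621_at read 3.67, 3.66 and 3.78 in Hep3B controls and 9.10, 8.67 and 8.33 in SNU449 controls (difference 4.99, SE 0.18, adjusted p = 7.0e-11). The Hep3B values lay at or below the array medians, so the exact size of this difference is uncertain, and the other 2 OSMR probe sets were also higher in SNU449, by 1.09 and 1.53. LIF, the ligand that signals through IL6ST and its own receptor, read 4.31, 4.78 and 3.97 against 7.63, 8.0 and 8.05 (difference 3.54, SE 0.20, adjusted p = 5.3e-09). SOCS3 at 227697_at read 3.24, 3.40 and 3.88 against 7.07, 7.04 and 6.99 (difference 3.53, SE 0.16, adjusted p = 6.5e-10). A second SOCS3 probe set, 206359_at, was higher in SNU449 by 1.32 (SE 0.26, adjusted p = 0.0013). Its remaining probe sets 206360_s_at (-0.09, adjusted p = 0.608) and the dim 214105_at (-0.08, adjusted p = 0.771) were not called. At 226621_at, the LIF probe set and 227697_at, the 3 genes thus were low in Hep3B and well above the array medians in SNU449. The lines did not overlap at these probe sets.

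CEBPD (203973_s_at) was higher in SNU449 controls by 2.80 (SE 0.15), IL6ST (212195_at) by 2.34 (SE 0.13), JAK1 (201648_at) by 1.47 (SE 0.12), IL6 by 1.36 (SE 0.18) and STAT3 (208991_at) by 1.06 (SE 0.15), with adjusted p-values of 7.7e-05 or lower. IL6 itself was low in both lines, at 3.60, 3.36 and 3.83 in Hep3B controls and 4.77, 5.15 and 4.95 in SNU449 controls. CEBPB was close between the lines, at 9.86, 9.87 and 9.44 in Hep3B and 10.35, 10.14 and 10.05 in SNU449 (difference 0.46, SE 0.13, adjusted p = 0.0180). That call was lost without SNU449 control replicate 1 (0.37, adjusted p = 0.0831) or without Hep3B control replicate 3 (0.32, adjusted p = 0.0896). The exception was IL6R, the chain that binds IL6, whose probe set 226333_at read 8.31, 8.38 and 8.34 in Hep3B controls and 6.03, 5.90 and 5.95 in SNU449 controls. This probe set was lower in SNU449, with a difference of -2.38 (SE 0.10, adjusted p = 2.2e-10). The other IL6R probe sets were not called. Of these, 205945_at differed by -0.96 (SE 0.51, adjusted p = 0.202) and the dim 217489_s_at by -0.05 (SE 0.14, adjusted p = 0.86).

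**Figure D1:**
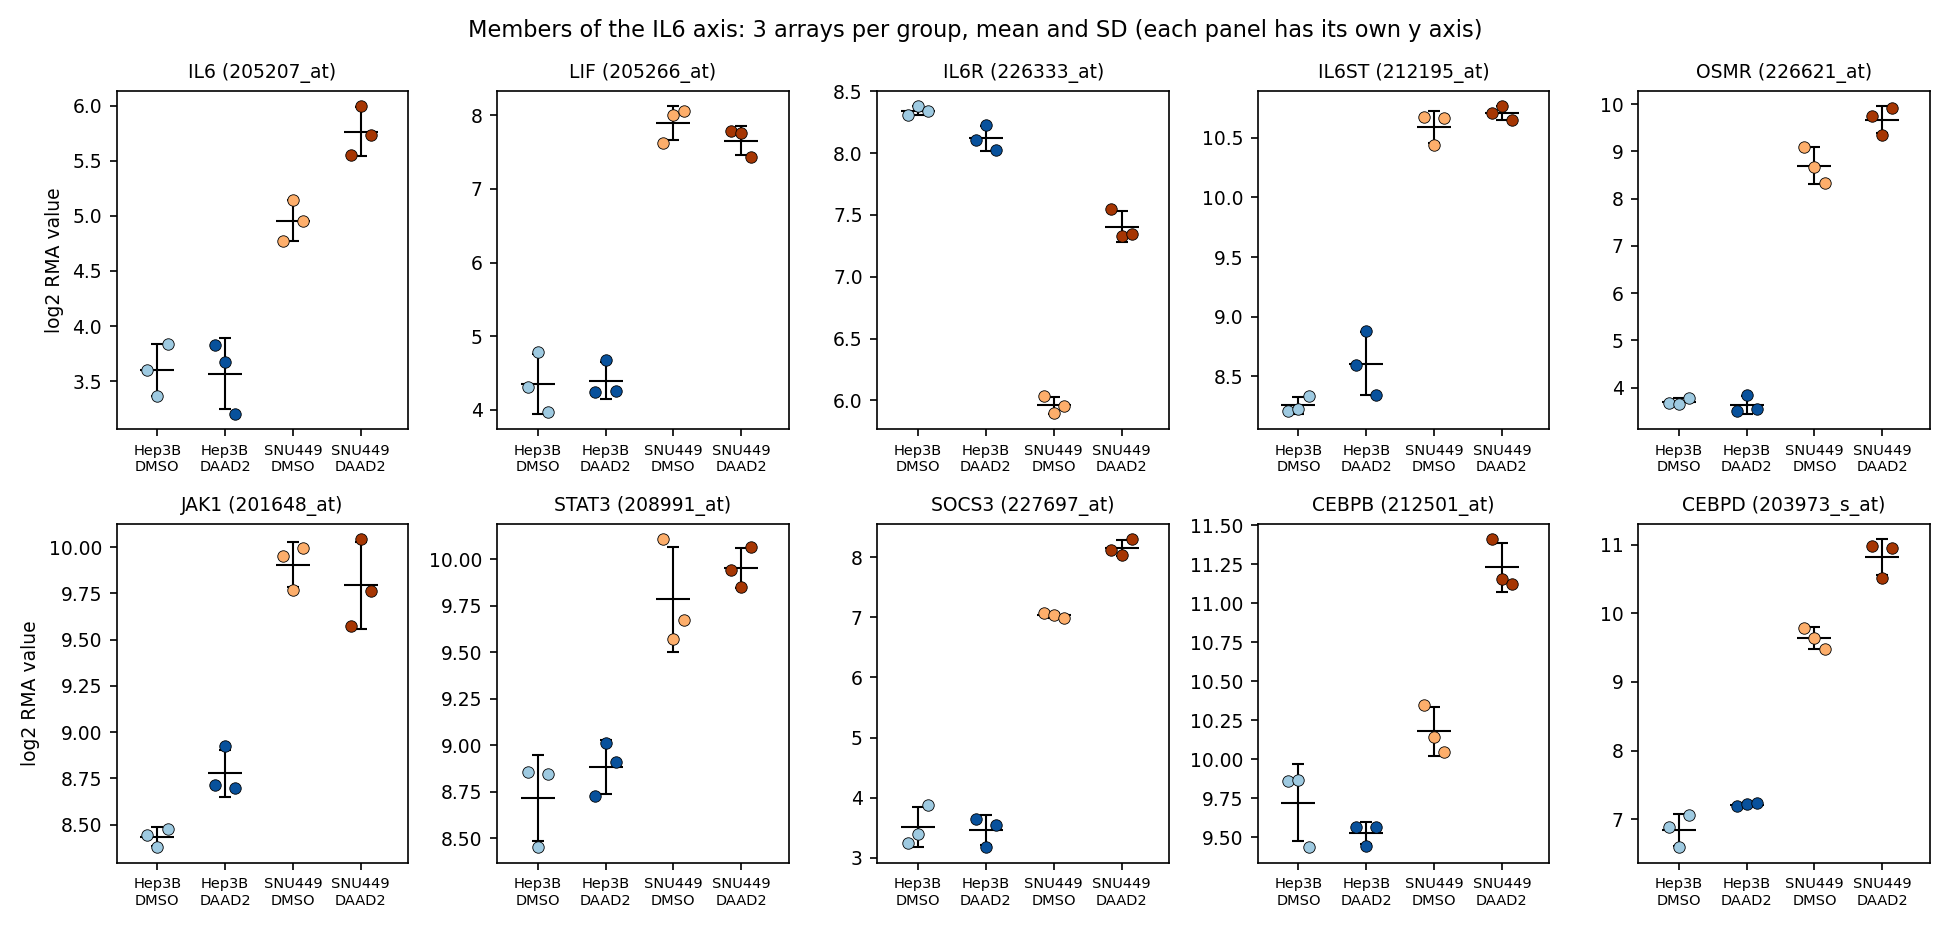
Levels of the 10 member genes (log2 RMA value, y axis, scaled separately in each panel) in the 4 groups (x axis), each gene by its probe set with the highest mean. Points are the 3 arrays of a group, the long line is the mean and the bars the SD. In SNU449 the DAAD2 arrays of IL6, IL6R, OSMR, SOCS3, CEBPB and CEBPD all lie above the control arrays, and in Hep3B the groups of IL6, OSMR, SOCS3 and CEBPB overlap.

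In DAAD2-treated SNU449 cells, transcripts of IL6, its receptor IL6R, the inhibitor SOCS3 and both C/EBP factors rose, while those of the signal carriers IL6ST, JAK1 and STAT3 did not pass the test. At an adjusted p under 0.05, 6 of 31 member probe sets (19.4%) were higher after DAAD2 and 0 were lower, against 1.04% higher and 0.417% lower over all probe sets. The 6 belong to 5 genes: IL6, IL6R, SOCS3, CEBPB and CEBPD, the last with both of its probe sets. At an unadjusted p under 0.05 the counts were 10 higher and 1 lower, with 6.0% and 5.80% over all probe sets. The median difference of the members was 0.17 log2 units, against 0.01 over all probe sets. In 9 of 31 member probe sets every DAAD2 array lay above every control array, and in 0 every one lay below, against 8.34% and 7.76% of all probe sets.

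Among the ligands, IL6 read 4.77, 5.15 and 4.95 in controls and 5.56, 6.0 and 5.73 after DAAD2. Every DAAD2 array lay above every control array, and the difference was 0.80 (SE 0.15, adjusted p = 0.0406), a fold of 1.75. This was the least firm of the calls: leaving out any of the 6 arrays moved the adjusted p to between 0.0611 and 0.174, with differences of 0.69 to 0.91. LIF read 7.63, 8.0 and 8.05 in controls and 7.79, 7.75 and 7.43 after DAAD2. Its groups overlapped, and the difference of -0.24 (SE 0.15) did not pass the test (adjusted p = 0.644, 95% interval -0.59 to 0.11).

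Of the receptor chains, IL6R had the largest rise of all members. At 226333_at it read 6.03, 5.90 and 5.95 in controls and 7.55, 7.33 and 7.34 after DAAD2, a difference of 1.45 (SE 0.11, adjusted p = 0.00157) and a fold of 2.73. The groups were separated by more than the whole range of either, although the treated arrays still lay below those of Hep3B, which ran from 8.02 to 8.38. A second IL6R probe set, 205945_at, read 4.96, 4.59 and 4.82 in controls and 5.68, 6.11 and 5.24 after DAAD2. Its groups did not overlap either, but the difference of 0.89 (SE 0.21) missed the threshold at an adjusted p of 0.0905, and passed it without DAAD2 replicate 3 (1.10, adjusted p = 0.0376). With the other arrays left out in turn its adjusted p lay between 0.104 and 0.301. The third, 217489_s_at, was dim in every group and differed by 0.19 (SE 0.14).

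OSMR at 226621_at read 9.10, 8.67 and 8.33 in controls and 9.75, 9.35 and 9.91 after DAAD2. The DAAD2 arrays all lay above the controls, by a difference of 0.97 (SE 0.21), with an adjusted p of 0.0720. Without DAAD2 replicate 2, the array with the high GAPDH ratio, the difference was 1.13 and the adjusted p 0.0435, and with each other array left out the adjusted p lay between 0.0540 and 0.244. The other OSMR probe sets differed by 0.71 (SE 0.23, adjusted p = 0.228) and 0.34 (SE 0.18, adjusted p = 0.535). IL6ST, the chain that OSMR and IL6R share, read 10.68, 10.44 and 10.66 in controls and 10.71, 10.76 and 10.64 after DAAD2 at 212195_at. These groups overlapped, with a difference of 0.11 (SE 0.11, 95% interval -0.14 to 0.37), and none of the 7 IL6ST probe sets was called, with differences between -0.09 and 0.22.

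The kinase JAK1 at 201648_at read 9.95, 9.77 and 9.99 in controls and 9.57, 10.04 and 9.76 after DAAD2. The groups overlapped and the difference was -0.11 (SE 0.14, adjusted p = 0.861, 95% interval -0.43 to 0.21). The 5 JAK1 probe sets disagreed in sign: 1552610_a_at differed by -0.81 (SE 0.34, adjusted p = 0.387) and 1552611_a_at by 0.34 (SE 0.37, adjusted p = 0.829), and none was called. STAT3, the factor that JAK1 activates, read 10.11, 9.57 and 9.67 in controls and 9.94, 9.85 and 10.07 after DAAD2 at 208991_at. Its 4 probe sets differed by 0.07 to 0.17, none was called, and the interval at 208991_at ran from -0.18 to 0.52.

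SOCS3, itself a STAT3 target and the feedback inhibitor of the receptor, read 7.07, 7.04 and 6.99 in controls and 8.11, 8.04 and 8.29 after DAAD2 at 227697_at. The control arrays were nearly level with each other and every DAAD2 array lay about 1 log2 unit above them, with a difference of 1.12 (SE 0.11, adjusted p = 0.00434) and a fold of 2.17. A second SOCS3 probe set, 206359_at, read 5.06, 5.59 and 5.53 in controls and 6.70, 5.72 and 6.54 after DAAD2. Replicate 2 was the lowest of these DAAD2 arrays: the difference of 0.93 (SE 0.25, adjusted p = 0.147) became 1.23 (adjusted p = 0.0226) without it. With each other array left out it missed the threshold, at an adjusted p of 0.279 to 0.393. The remaining probe sets did not follow, with 206360_s_at at 0.01 (SE 0.12) and the dim 214105_at at 0.03 (SE 0.18).

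CEBPB, the factor first known as the nuclear factor for IL6, read 10.35, 10.14 and 10.05 in controls and 11.41, 11.16 and 11.12 after DAAD2. The lowest DAAD2 array stood well above the highest control, and the difference was 1.05 (SE 0.13, adjusted p = 0.0102), a fold of 2.07. CEBPD at 203973_s_at read 9.79, 9.65 and 9.48 in controls and 10.98, 10.51 and 10.96 after DAAD2, a difference of 1.18 (SE 0.15, adjusted p = 0.0125) and a fold of 2.26. Its dimmer probe set 213006_at read 3.68, 3.15 and 3.29 in controls and 4.71, 4.58 and 4.60 after DAAD2, a difference of 1.26 (SE 0.15, adjusted p = 0.00782). Both probe sets of CEBPD thus separated the groups, the second from a control level below the array medians.

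**Figure D2:**
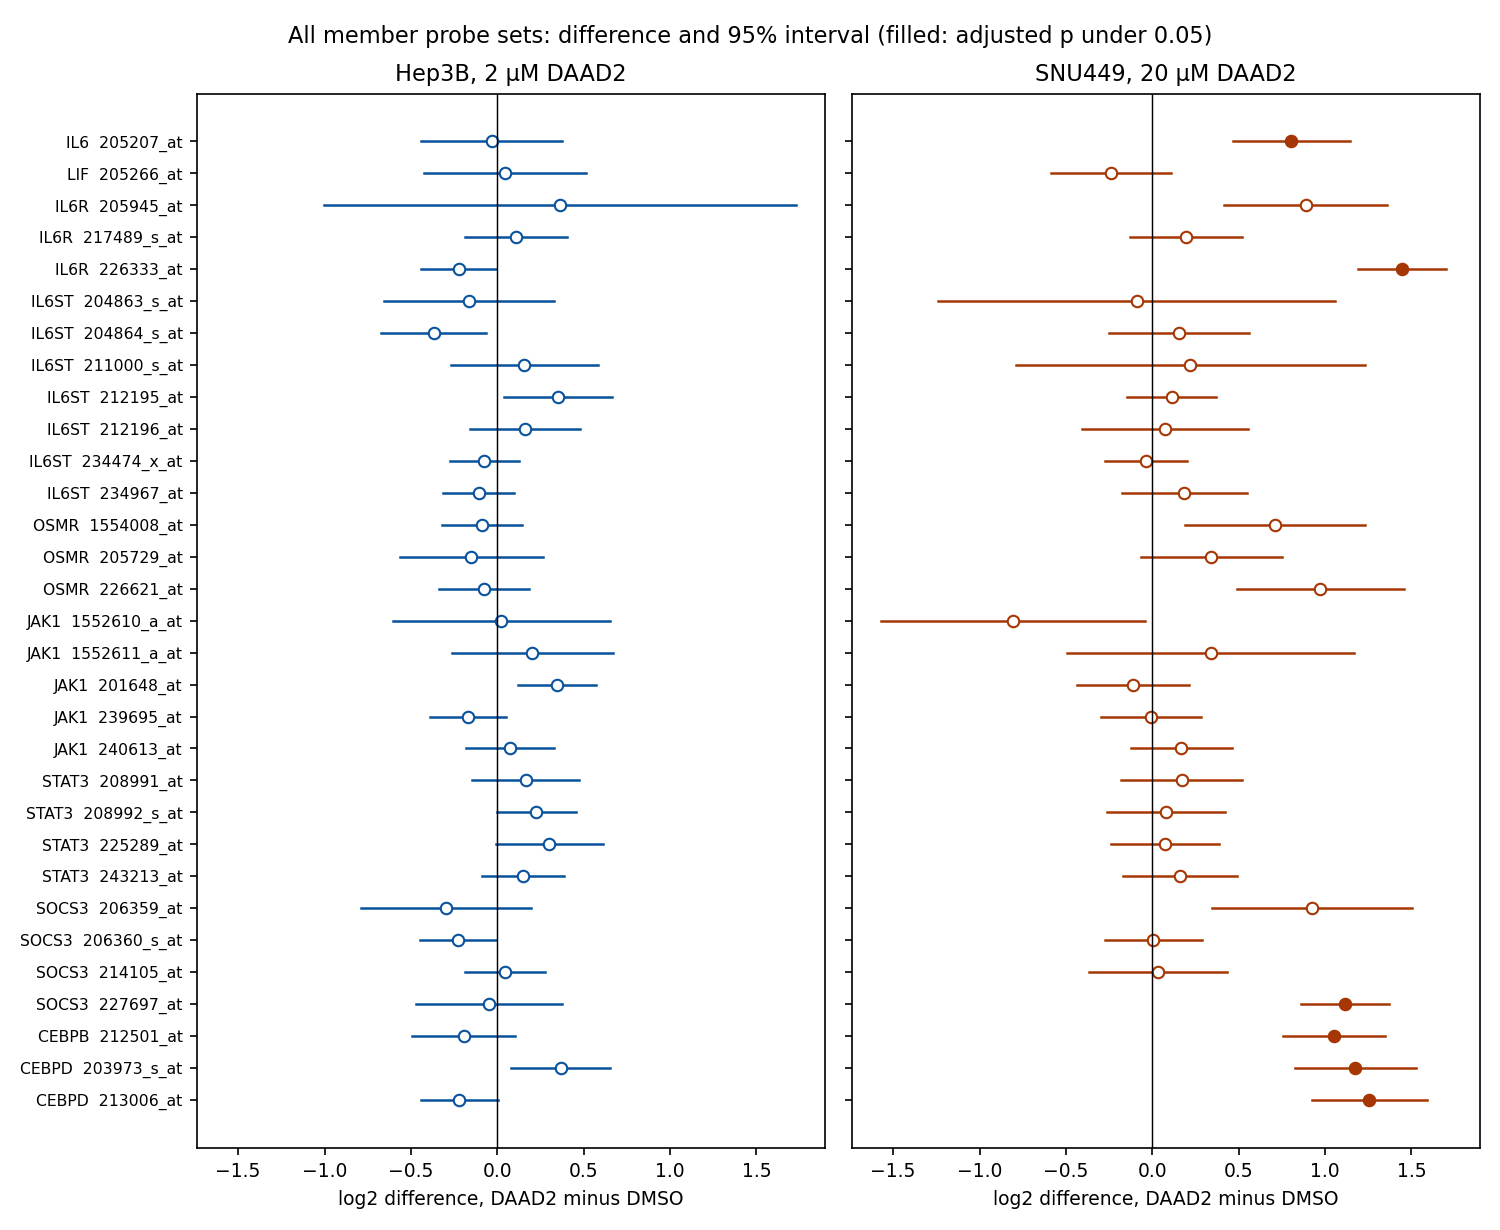
DAAD2 minus control differences (log2, x axis) of all 31 member probe sets (y axis) in Hep3B and SNU449. Points are differences, bars 95% intervals from limma, and filled points passed an adjusted p under 0.05. All 6 filled points are in SNU449 and lie to the right of 0, between 0.80 and 1.45.

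Several of these calls were lost when a single array was left out. Whether this came from the array itself or from the smaller number of arrays was not tested. IL6R (226333_at) and SOCS3 (227697_at) stayed called with each of the 6 SNU449 arrays left out in turn, with adjusted p-values of 0.00552 to 0.0210 and 0.00910 to 0.0411. CEBPB and CEBPD at 203973_s_at were no longer called when DAAD2 replicate 1, or replicate 2 or 3 of the controls, was left out, and their adjusted p-values reached 0.0711 and 0.0776. For CEBPD at 213006_at the same held of DAAD2 replicate 1 and control replicate 3 (up to 0.0607). The count of called member probe sets was 3 without control replicate 2, 2 without control replicate 3, 2 without DAAD2 replicate 1 and 7 without DAAD2 replicate 2. Over all 54613 probe sets the counts in these fits were 123, 105, 128 and 1168. With all 6 arrays, 570 of them were higher and 228 lower. Without DAAD2 replicate 2 the difference was 0.69 for IL6 (adjusted p = 0.0611), 1.49 for IL6R at 226333_at (0.00552) and 0.67 at 205945_at (0.104). It was 1.17 for SOCS3 at 227697_at (0.00910), 1.09 for CEBPB (0.0189), 1.33 for CEBPD at 203973_s_at (0.00846) and 1.28 at 213006_at (0.0176), so that IL6 alone of the 6 called probe sets lost its call without that array. The sizes moved less than the calls: the difference of CEBPB lay between 0.96 and 1.14 over the 6 fits.

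**Figure D3:**
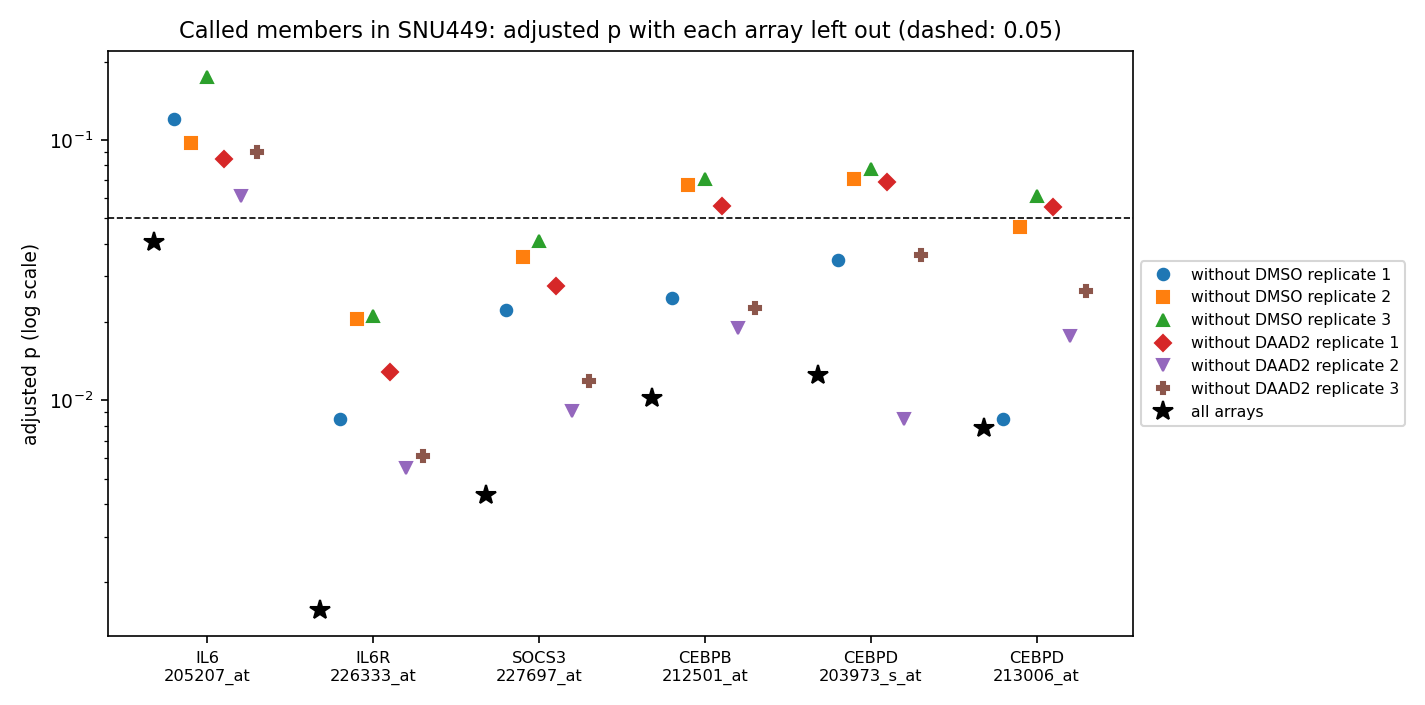
Adjusted p (log scale, y axis) of the 6 called member probe sets in SNU449 (x axis) with all 6 arrays (star) and with each array left out in turn (other markers). The dashed line is the threshold of 0.05, which IL6R at 226333_at and SOCS3 at 227697_at stay under in each case and IL6 crosses in each case.

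In DAAD2-treated Hep3B cells, 0 of 31 member probe sets passed the same test with limma, as did 0 (0%) of all 54613 probe sets. The count over all probe sets depended on the fit: it was 154 with all 12 arrays in a common fit, 77 with centred arrays and 319 with a trended, robust variance, while the member count was 0 in each of these. At an unadjusted p under 0.05, 3 were higher and 3 lower, where 9.53% and 5.47% of all probe sets did so. In 4 member probe sets every DAAD2 array lay above every control (12.9%, against 11.0% of all probe sets) and in 5 every one lay below (16.1%, against 9.99%), shares near the background. The differences of the 31 ran from -0.37 to 0.37, with a median of 0.02. SOCS3 at 227697_at read 3.24, 3.40 and 3.88 in controls and 3.65, 3.17 and 3.55 after DAAD2, and IL6 read 3.60, 3.36 and 3.83 and then 3.83, 3.67 and 3.20. Their differences of -0.05 (SE 0.18) and -0.03 (SE 0.18) turned sign when the arrays were centred or quantile-normalized, and both genes sat near or below the array medians in this line.

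CEBPB, which was bright in Hep3B too, read 9.86, 9.87 and 9.44 in controls and 9.57, 9.44 and 9.57 after DAAD2, a difference of -0.19 (SE 0.13, adjusted p = 0.531, 95% interval -0.49 to 0.11). IL6R at 226333_at read 8.31, 8.38 and 8.34 and then 8.11, 8.23 and 8.02. All DAAD2 arrays lay below the controls, with a difference of -0.22 (SE 0.09, adjusted p = 0.314). CEBPD at 203973_s_at read 6.88, 6.59 and 7.06 and then 7.19, 7.22 and 7.23, all above the controls (difference 0.37, SE 0.13, adjusted p = 0.226), while its dim probe set 213006_at differed by -0.22 (SE 0.10, adjusted p = 0.342). JAK1 at 201648_at read 8.44, 8.38 and 8.48 and then 8.71, 8.92 and 8.70 (difference 0.34, SE 0.10, adjusted p = 0.169). IL6ST at 212195_at read 8.21, 8.22 and 8.34 and then 8.60, 8.88 and 8.35 (difference 0.35, SE 0.14, adjusted p = 0.284). JAK1 and IL6ST had no overlap between their groups and missed the threshold. The 4 STAT3 probe sets differed by 0.15 to 0.30, LIF by 0.04 (SE 0.21), which turned sign with cyclic loess, and the 3 OSMR probe sets by -0.15 to -0.08.

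The response of SNU449 to 20 μM differed from that of Hep3B to 2 μM for 4 of 31 member probe sets (interaction term over 12 arrays, adjusted p under 0.05), all 4 higher in SNU449, against 0.797% higher and 1.21% lower over all probe sets. For IL6R at 226333_at, which was called in SNU449 and not in Hep3B, the difference between the responses was 1.67 (SE 0.14, adjusted p = 1.1e-04). For CEBPD at 213006_at it was 1.48 (SE 0.18, adjusted p = 0.00188), for CEBPB 1.24 (SE 0.19, adjusted p = 0.00680) and for SOCS3 at 227697_at 1.16 (SE 0.23, adjusted p = 0.0211). The first 3 stayed called with each of the 12 arrays left out in turn. SOCS3 missed the threshold without SNU449 control replicate 2 (adjusted p = 0.0534), SNU449 control replicate 3 (0.0634), SNU449 DAAD2 replicate 1 (0.0509) or Hep3B DAAD2 replicate 2 (0.0579).

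OSMR at 226621_at (1.05, SE 0.26, adjusted p = 0.0602), CEBPD at 203973_s_at (0.81, SE 0.21, adjusted p = 0.0669) and IL6 (0.84, SE 0.25, adjusted p = 0.120) did not pass. The first 2 lay near the threshold. OSMR passed when dim probe sets were left out (adjusted p = 0.0453), with a trended variance (0.0421) and without SNU449 control replicate 1 (0.0200). CEBPD passed with quantile normalization (0.0497), with a trended variance (0.0353) and without Hep3B control replicate 2 (0.0484). SOCS3 at 227697_at was lost with no moderation of the variances (0.0997). A difference in the IL6 response between the lines is therefore not shown, although IL6 was called in SNU449 and not in Hep3B. Without SNU449 DAAD2 replicate 2 the count was 7, with OSMR at 226621_at (1.21, adjusted p = 0.0204), SOCS3 at 206359_at (1.52, adjusted p = 0.0207) and CEBPD at 203973_s_at (0.96, adjusted p = 0.0151) added. In that fit 2321 of all probe sets were called. STAT3 at 208991_at had a difference between the responses of 0.01 (SE 0.22, 95% interval -0.46 to 0.47), whose sign turned when the arrays were centred. For IL6ST at 212195_at it was -0.24 (SE 0.18) and for JAK1 at 201648_at -0.46 (SE 0.17, adjusted p = 0.244).

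The other genes of the pathway were described by 8 lists of 88 genes, of which 78 were matched, each by its probe set with the highest mean. In SNU449, 12 of the 78 were higher after DAAD2 and 1 was lower, against 1.82% higher and 0.561% lower over 19775 genes. The further ligands of the family (6 genes), its receptors (4), the other JAK and STAT genes (7), the shedding proteases ADAM10 and ADAM17 (2) and the other C/EBP genes (5) held 0 called genes in this limma test. At an unadjusted p under 0.05 these lists held 1 higher gene, a protease, and 2 lower ones, a ligand and a C/EBP gene, where 9.42% of all genes were higher and 7.18% lower. Of 15 inhibitors, PIAS2, a SUMO ligase named for its binding to activated STATs, was higher. It read 5.11, 5.09 and 5.12 in controls and 5.75, 5.88 and 6.30 after DAAD2 (difference 0.87, SE 0.15, adjusted p = 0.0304).

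Of 21 liver acute phase genes, 6 rose and 0 fell in SNU449, with a median difference of 0.23: the fibrinogen chains FGA, FGB and FGG, the copper carrier CP and the complement genes C3 and CFB. The rest of that list was not called, and over all 21 the differences were positive in 16 and negative in 5. Over 19775 genes 1.82% rose and 0.561% fell at the same threshold, with a median difference of 0.003. FGG rose by 2.43 (SE 0.27, adjusted p = 0.00595), C3 by 1.91 (SE 0.13, adjusted p = 7.7e-04), CP by 1.85 (SE 0.12, adjusted p = 7.7e-04) and FGB by 1.56 (SE 0.19, adjusted p = 0.00947). FGG read 8.22, 7.51 and 7.21 in controls and 10.51, 9.91 and 9.81 after DAAD2. All FGG arrays after treatment lay above all controls. Of 18 general STAT3 targets, 5 rose (FOS, BCL6, JUNB, IRF1 and ICAM1) and CCND1 fell, with a median of 0.32. The immediate early gene FOS rose by 1.88 (SE 0.22, adjusted p = 0.00789), the repressor BCL6 by 1.56 (SE 0.18, adjusted p = 0.00804) and the AP-1 subunit JUNB by 1.51 (SE 0.13, adjusted p = 0.00229). CCND1, the G1 cyclin D1, fell by 1.26 (SE 0.20, adjusted p = 0.0252). These genes answer to other factors as well, and the lists do not show which factor moved them. The pathway count was 6 when control replicate 2 was left out, 6 without control replicate 3 and 7 without DAAD2 replicate 1, and without DAAD2 replicate 2 all 13 genes were called. In the same order, 123, 105, 128 and 1168 of all 54613 probe sets were called. FGG, CP, C3 and JUNB were called in all 6 such fits. FGA and ICAM1 were lost in 5 of the 6, PIAS2 and IRF1 in 4, CCND1 in 3, FGB in 2, and CFB, BCL6 and FOS in 1. FGA was also lost with quantile normalization and cyclic loess, and PIAS2, CCND1, IRF1 and ICAM1 with the replicate number as a block.

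In Hep3B, 0 of the 78 pathway genes passed in limma, and 12 were higher and 9 lower at an unadjusted p under 0.05, where 13.6% and 6.63% of all genes were. Of the 21 acute phase genes, 2 were higher and 6 lower at that unadjusted threshold, with a median difference of -0.18. The median over all genes was -0.01. Among these 21, CP differed by 1.07 (SE 0.21, adjusted p = 0.0941) and CFB by -0.94 (SE 0.15, adjusted p = 0.0770). DDIT3, a C/EBP relative induced by endoplasmic reticulum stress, differed by 0.82 (SE 0.13, adjusted p = 0.0766). Of the 18 general STAT3 targets, 4 were higher and 1 lower at the unadjusted threshold, with a median of 0.12. Among these 18, the kinase PIM3 differed by 0.52 (SE 0.11, adjusted p = 0.0975) and FOS by -0.51 (SE 0.12, adjusted p = 0.117). The responses of the lines differed for 11 of the 78, 10 higher and 1 lower in SNU449, against 1.46% and 1.82% over all genes. The higher ones were FGA, FGB, FGG, SERPINA3, C3, CFB, PIAS2, BCL6, JUNB and FOS, and the lower one was CCND1. SERPINA3 was called in neither line, at 0.39 in SNU449 (adjusted p = 0.315) and -0.54 in Hep3B (adjusted p = 0.137). CFB differed by 1.11 in SNU449, beside its -0.94 in Hep3B. The pathway count for this difference was 7 without SNU449 control replicate 2 or 3, Hep3B control replicate 1 or Hep3B DAAD2 replicate 1. Over all probe sets those fits called 482, 435, 511 and 453. FGG, C3, CFB, BCL6, JUNB, FOS and CCND1 were called with each of the 12 arrays left out, while FGA was lost in 10 of the 12 fits, SERPINA3 in 8, and FGB and PIAS2 in 6. CP, whose difference was positive in both lines, did not pass that test (0.78, SE 0.26, adjusted p = 0.178).

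**Figure D4:**
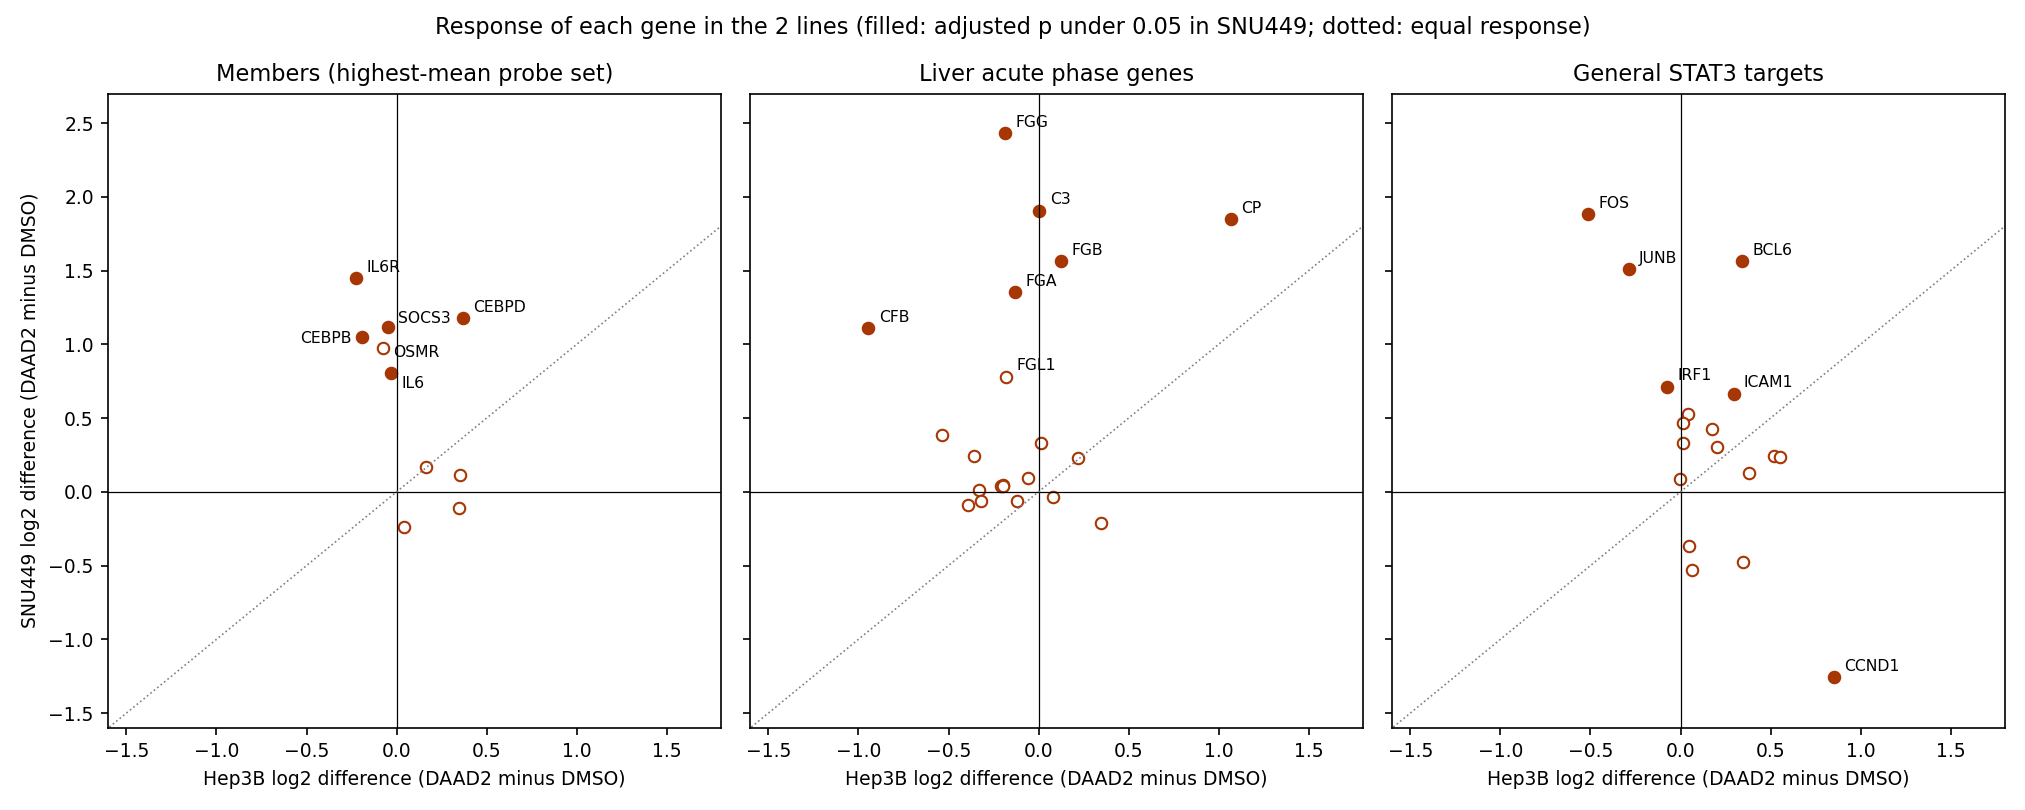
Response to DAAD2 in Hep3B (x axis) and in SNU449 (y axis), both as log2 DAAD2 minus control, for the 10 members, 21 liver acute phase genes and 18 general STAT3 targets. Each point is a gene by its highest-mean probe set, filled where it was called in SNU449, and the dotted line marks equal responses. The called members lie close to 0 on the Hep3B axis, between -0.22 and 0.37, and at 0.80 to 1.45 on the SNU449 axis.

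CEBPA, the C/EBP factor that marks differentiated hepatocytes, differed from CEBPB in its starting levels. It read 11.77, 12.16 and 11.98 in Hep3B controls and 4.83, 4.72 and 4.89 in SNU449 controls, a difference of -7.16. Of the 5 other C/EBP genes, CEBPA, CEBPG and DDIT3 were lower in SNU449 controls and 0 were higher, against 21.2% lower and 19.3% higher over all genes. After DAAD2, CEBPA read 4.66, 4.46 and 3.86 in SNU449, a difference of -0.49 (SE 0.19, adjusted p = 0.346) that did not pass the test.

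The genes whose pattern was most like that of CEBPB over the 12 arrays, after the mean of each line was subtracted, were ERP27 (r = 0.99), AKR1C3 (0.99), AKR1C2 (0.98), IL15 (0.98) and SMIM19 (0.97). For SOCS3 they were ENDOD1 (r = 0.96), RPL9 (0.95), CTSC (0.95), GATC (0.95) and GOLGA8N (0.95). ERP27 differed by 1.89 in SNU449 and by -0.28 in Hep3B, and ENDOD1 by 1.36 and -0.19. The 12 arrays share the groups and the normalization, and these correlations are a description.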

How the data were processed

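Log2 values of 12 arrays were used as deposited. Per the labels, the authors made them with RMA (background correction, quantile normalization and summary per probe set), and the methods name BRB Array Tools. The sources used here give no version of RMA. Array medians of 3.71 to 3.85 show that the arrays were not on identical distributions, and 0 columns were left unused.

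Groups came from the sample labels. The 62 control probe sets were dropped and 54613 tested with limma 3.58.1 in R 4.3.3 (lmFit, eBayes, two-sided, Benjamini-Hochberg over all probe sets, call at an adjusted p under 0.05, no filter on dim probe sets). Each line was fitted on its own 6 arrays. The difference between the responses and that between the control groups came from a fit of all 12 arrays with 4 group means. Symbols came from the platform annotation, which assigns 41091 tested probe sets 1 symbol, 1801 several and 11721 none. Only the first kind was used to name a gene. Of 88 pathway genes, 10 were not matched and are not used here. The members and lists were chosen with earlier results of these data known.

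All members were named. Of the lists, every called gene was named, with values for at most the 4 with the largest difference per list, and where none was called, at most the 2 with the smallest p. The 5 genes most like CEBPB and SOCS3 were named by Pearson r. CEBPA in the control groups was chosen after its values were seen.

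With 3 arrays a group, the smallest two-sided p of an exact permutation test is 0.1, so none was run. Alternatives were all 12 arrays in a common fit, the replicate number as a block, median centring, quantile normalization, cyclic loess, dim probe sets left out, other variance models, a fold over 1.5 with an unadjusted p under 0.05, and each array left out in turn. They were followed for the counts and for 13 member probe sets, the highest-mean one of each gene and those whose SNU449 groups do not overlap. The fit was tested on simulated data. The number of arrays limits the precision. Python 3.11.15 was used for summaries (pandas 2.3.3, numpy 2.4.6) and figures (matplotlib 3.10.9).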

Additional observations from a re-analysis of the deposited data

Results flagged for a closer look

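For 4 member probe sets the response to DAAD2 differed between the lines in the interaction test of limma (adjusted p under 0.05). The difference, SNU449 response minus Hep3B response in log2 units, was 1.67 for IL6R at 226333_at, 1.48 for CEBPD at 213006_at, 1.24 for CEBPB at 212501_at and 1.16 for SOCS3 at 227697_at. The doses were 20 μM and 2 μM, so line and dose cannot be told apart. In Hep3B, CEBPD at 213006_at and SOCS3 at 227697_at lay near or below the array medians.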

How the results depend on the processing

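In SNU449, the count of called member probe sets (6) became 0 with ordinary variances and no moderation, where 0 probe sets of the whole array were called and 8 of 31 members had an unadjusted p under 0.05. It became 11 by a fold above 1.5 together with an unadjusted p under 0.05, 10 of them higher, and 2 to 7 with each array left out in turn. Over all 54613 probe sets, 5137 had an unadjusted p under 0.05 with no moderation. The fold rule called 1798 of the 54613, and 105 to 1168 were called with each array left out. The pathway count in SNU449 (13) became 0 with no moderation, with 26 at an unadjusted p under 0.05, and 6 to 13 with each array left out. In Hep3B the pathway count (0) became 3 with all 12 arrays in a common fit (DDIT3, CP and CFB), 5 with a trended, robust variance (SERPINA1 and PIM3 added) and 4 by fold and unadjusted p (the same 3 with CCND1). Over all probe sets these settings called 154, 319 and 885. The count for the difference between the responses (4) lay between 3 and 7 with each array left out. Over all probe sets, 435 to 2321 were called in those fits, against 435 higher and 661 lower with all 12 arrays. The pathway count for that difference (11), whose alternatives were added after seeing the data, became 5 with no moderation, 9 with the replicate number as a block and 7 to 13 with each array left out.

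The call of IL6 in SNU449 was lost when arrays were centred (adjusted p = 0.0648) and with cyclic loess (0.055), and that of OSMR at 226621_at was gained with all 12 arrays (0.0102), without dim probe sets (0.0478) and with a trended variance (0.0215). Some small differences turned sign. In Hep3B, IL6 came to 0.0235 (centred), 0.0239 (quantile) and 0.0334 (cyclic loess), SOCS3 at 227697_at to 0.0076 (centred) and 0.0103 (quantile), and LIF to -0.0256 (cyclic loess). With each array left out, IL6 lay between -0.16 and 0.15, SOCS3 between -0.18 and 0.14, LIF between -0.15 and 0.26, and IL6R at 205945_at between -0.37 and 0.96. For the difference between the responses, STAT3 at 208991_at came to -0.0390 (centred) and lay between -0.10 and 0.17 with each array left out, and IL6R at 205945_at between -0.078 and 1.26. The cause of these changes was not tested.

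Deviations of arrays with the same replicate number correlated between -0.27 and 0.09, which gave no sign of pairing by number. The labels do not say whether arrays with the same number were handled together. With the replicate number as a block, 6 member probe sets and 9 pathway genes were called in SNU449, 0 and 0 in Hep3B, and 3 for the difference between the responses, where SOCS3 at 227697_at was lost (adjusted p = 0.0531). Over all probe sets the block fits called 262 in SNU449, 0 in Hep3B and 420 for the difference between the responses. No paired value exists for the control groups of the lines, for which the block was not fitted. Over all alternatives, the block included, 797 comparisons of a member value kept direction and side of the threshold. Another 21 turned sign, 19 gained a call and 30 lost one. Values called in neither fit are among the 797.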
